A study of Mus musculus with 30 samples.

Results

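The kinesin superfamily genes were followed across 30 RNA-seq libraries of cultured mouse aortic smooth muscle cells, in which the long noncoding RNA CASC15 was knocked down or overexpressed and some cells were treated with angiotensin II or PDGF-BB. Members were every gene whose mouse symbol is Kif or Kifc followed by a number and at most a letter a, b or c. By this rule 42 of the 51486 gene identifiers with a symbol were members, out of 78334 identifiers in the deposited table. Cenpe, a kinesin with another kind of symbol, is outside the rule and is described as a partner gene. By textbook role, 14 members were counted as mitotic motors and 15 as transport motors. A further 9 were counted as motors of cilia, centrioles or microtubule length, and 4 as other.

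Kinesins are motor proteins that use ATP to act on microtubules. Mitotic kinesins build the spindle, move and compact chromosomes and drive cytokinesis, and their genes are transcribed mainly in cycling cells. Transport kinesins carry vesicles, organelles, RNA and ciliary components along microtubules in resting and cycling cells alike. Vascular smooth muscle cells leave their resting state when stimulated by growth factors such as PDGF-BB. Angiotensin II is a vasoactive peptide.

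The libraries fall into 9 groups from sequencing runs 2 and 3. Per the labels, cells were starved of serum for 48 h and transfected for at least 24 h, and treated cells received angiotensin II at 10 ng/ml or PDGF-BB at 10 to 30 ng/ml for 24 h. In run 3, 5 groups of 4 libraries held control GapmeR cells that were untreated, given angiotensin II or given PDGF-BB, and long CASC15 knockdown cells that were untreated or given angiotensin II. A GapmeR is an antisense oligonucleotide that directs RNase H to its target RNA. In run 2, all cells were untreated: the control GapmeR and the label total CASC15 knockdown had 2 libraries each, and the control plasmid and the total CASC15 overexpression plasmid had 3 each. PDGF-BB was given only to control GapmeR cells. The labels give a batch, P16 to P19 in run 3 and P17 to P19 in run 2, with P17 and P18 alone for the GapmeR groups of run 2. The labels do not say what a batch is, whether separate animals stand behind it, or which transcripts "long" and "total" CASC15 denote, and the growth protocol names mouse and rat cells. Sample titles give the target a CASC number that differs between replicates of a group, so groups were taken from the library names in the labels, which do not differ. The p-values below therefore measure the spread between these libraries, which may in part be technical.

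The deposited expected counts summed to 15771490 to 30362047 per library in run 3 and to 18007199 to 21881959 in run 2, and kinesin genes took 0.171% to 0.32% of them. The targeted gene, read as 2610307P16Rik because no table used here pairs the names, stood at 2.15 to 3.48 CPM (counts scaled to the TMM-adjusted library size) in untreated long CASC15 knockdown libraries against 4.94 to 6.01 in their controls. It reached 604 to 916 CPM with overexpression against 4.03 to 8.69. In the libraries labelled total CASC15 knockdown it was not lower, at 8.29 to 9.73 CPM against 6.37 to 7.66, and they are named by their label throughout. Of the smooth muscle markers, Acta2 (96.5 to 441 CPM), Cald1 (417 to 855) and Smtn (42.2 to 103) were present in all 30 libraries, Tagln stayed between 0.234 and 3.45 CPM, and Cnn1 was at 0 in 17. The leukocyte marker Ptprc was at 0 in 26 libraries, the macrophage marker Adgre1 in 29 and the endothelial marker Cdh5 in 28. Other markers of those cells were read in most libraries, with Cd68 at up to 15.9 CPM and Pecam1 at up to 3.27 in no library at 0, Csf1r at 0 in 4, Lyz2 in 3, Vwf and Tek in 2 each and Kdr in 1. Batch P19 stood apart for the mitotic kinesins outside the PDGF-BB group, and results that rest on it are given with and without it.

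In untreated control cells of run 3 transport kinesins made up most of the kinesin RNA. Per kilobase of exon, Kif5b, the ubiquitous conventional kinesin heavy chain, had the highest level at 87.8 CPM per kb, followed by Kif1c, a carrier of vesicles and RNA, at 79.6. A wide gap separated this pair from Kif3a and Kif3b, the motor subunits of kinesin-II, which ferries cargo into cilia and along microtubules, both at 16.3 CPM per kb. Kif2a, which shortens microtubules at their ends, was at 13.9, Kif21a, an inhibitor of microtubule growth, at 12.0, and Kif1b, a mitochondrial and vesicle carrier, at 10.1 CPM per kb. The mitotic kinesin with the highest level was Kif20a, at 6.84 CPM per kb, and Kif14 stood at 0.317. With PDGF-BB, Kif20a at 75.4 CPM per kb ranked just behind Kif5b at 98.4 and Kif1c at 82.7, and was followed by Kif11 at 23.8.

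The mitotic motors were the part of the family that varied most between groups. Summed over the 14 genes, their level in run 3 was 117 ± 48.9 CPM (SD, n = 4) in untreated controls, 130 ± 48.4 with angiotensin II and 1139 ± 13.8 with PDGF-BB. It was 57.2 ± 38.8 with long CASC15 knockdown and 57.2 ± 40.0 with knockdown and angiotensin II. Most of that spread came from batch P19, which alone read 188, 200, 115 and 117 CPM in the control, angiotensin II, knockdown, and knockdown with angiotensin II groups. The other 3 batches lay within 79.5 to 103, 96.0 to 128, 33.8 to 41.8 and 35.8 to 39.5 CPM. With PDGF-BB, P19 at 1134 CPM lay inside the range of the other batches, 1127 to 1159.

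In run 2 the mitotic sums were 39.9 and 53.8 CPM in control GapmeR cells. The libraries labelled total CASC15 knockdown read 114 and 170 CPM. Mitotic sums were 74.4 to 90.7 CPM with the control plasmid and 128 to 162 with overexpression in P17 and P18, and 379 and 519 CPM in P19. Transport sums moved far less: group means ran from 1552 CPM with overexpression to 1944 CPM with PDGF-BB over all 9 groups. Mitotic motors accordingly took a mean of 5.12% of kinesin CPM in run 3 untreated controls, 34.6% with PDGF-BB and 2.81% with long knockdown. In bulk RNA, fewer cycling cells and less mitotic RNA per cell cannot be told apart.

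**Figure D1:**
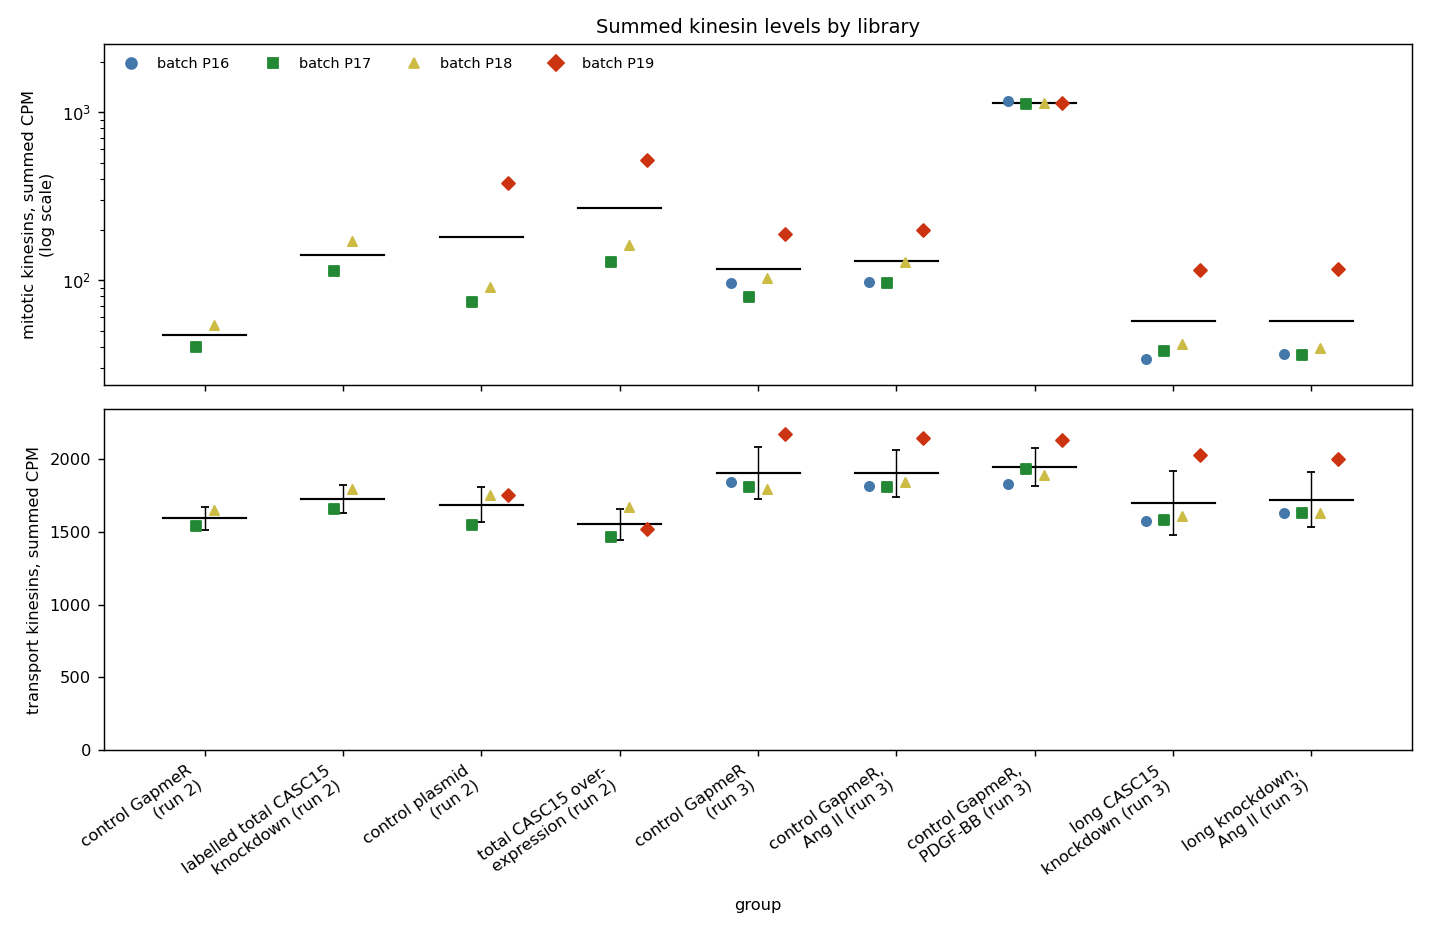
Summed level of the mitotic kinesins (log axis, CPM) and of the transport kinesins (linear axis, CPM) in each of the 30 libraries by group. Marker shape gives the batch, horizontal lines the group means and, for transport motors, bars the SD. PDGF-BB libraries sit at 1127 to 1159 CPM for mitotic motors, above every other library, while transport group means lie between 1552 and 1944 CPM.

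With PDGF-BB every mitotic kinesin tested was higher in edgeR's test. The comparison with untreated control GapmeR cells asks how the family responds to a growth factor. Of 35 members tested in run 3, 15 were higher and 7 lower in edgeR's quasi-likelihood test at a Benjamini-Hochberg adjusted p of 0.05 over 15103 genes. Among all genes tested 43.6% passed that threshold, 23.6% higher and 20.0% lower. All 13 mitotic kinesins tested were higher, with log2 fold changes from 2.38 to 3.86 and a median of 3.41, beside a median of -0.02 over all genes. Reads split between genes left values that were not whole for Kifc1 and Kifc5b in all 30 libraries. The same held for Kif20a in 20 libraries, Kif22 in 18 and Kif4 in 14. Kifc1 and Kifc5b may thus not be separate changes. Of 14 transport kinesins tested 1 was higher and 5 were lower, and their median was -0.19. With the batch as a block 28 members passed, where 54.5% of all genes did: the same number of mitotic motors, 11 of 14 transport motors (3 higher and 8 lower) and 3 of 7 cilium, centriole or length motors. DESeq2 called 10 of the 13 mitotic motors and gave no p for Kif11, Kif18b and Kif20a in any comparison of run 3, which leaves 32 members with a p. Groups did not overlap for 22 of 35 members, against 40.7% of all genes. On the linear scale these changes ran from 5.21-fold for Kif18a to 14.5-fold for Kif14.

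Kif11 (ENSMUSG00000012443.5), the tetrameric motor that pushes spindle poles apart, read 13.0, 10.9, 12.7 and 29.7 CPM in untreated controls of batches P16 to P19, and 171, 169, 179 and 192 CPM with PDGF-BB. All 4 treated libraries lay above all controls, and P19 was the highest in both groups. Its rise on the log2 scale was 3.41 ± 0.63 (SE) at an adjusted p of 0.00036. Kif15, which helps to keep the spindle bipolar, rose from 4.75, 3.63, 4.59 and 7.99 CPM to 57.4, 60.8, 64.0 and 56.5, a log2 fold change of 3.49 ± 0.42 (adjusted p = 3.8e-06). The treated libraries spanned a narrow range and the groups did not overlap.

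Of the cytokinesis motors, Kif14 had the largest log2 fold change of the 13 and Kif20a the highest level. Kif14, a partner of citron kinase at the midbody, rose from 2.39, 2.44, 3.29 and 5.01 CPM to 55.3, 48.6, 49.3 and 40.3, a log2 fold change of 3.86 ± 0.57 (adjusted p = 3.5e-05). Kif20a, which brings Aurora B to the central spindle, rose from 24.2, 17.9, 26.8 and 49.9 CPM to 345, 322, 322 and 319. Its log2 fold change was 3.45 ± 0.63 (adjusted p = 0.00034). Neither pair of groups overlapped, and P19 was the highest control but the lowest treated library for both genes. Of the motors acting on chromosomes and microtubule ends, Kif4, a chromokinesin, rose from 1.89, 2.11, 3.09 and 6.20 CPM to 35.8, 40.7, 41.5 and 43.5 (log2 fold change 3.57 ± 0.48, adjusted p = 1.1e-05). Kif18b, which limits the length of astral microtubules, rose from 2.44, 1.299, 2.44 and 4.94 CPM to 40.6, 38.5, 41.5 and 38.7. Its log2 fold change was 3.80 ± 0.67 (adjusted p = 0.00021). Controls and treated libraries of both genes were separated by several fold. The other 7 mitotic motors tested, among them the centralspindlin motor Kif23 and the chromosome-congression motor Kif18a, rose by log2 2.38 to 3.42.

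Promoter windows of some of these motors are printed because 13 mitotic members moved together and letters of 2 known cell cycle promoter elements can be looked up in them. Windows run from 100 bases before to 30 bases after the annotated start, 5′ to 3′ on the gene's strand, from RefSeq on GRCm38.p6. Capitals mark TTTGAA, the letters of the cell cycle genes homology region (CHR), and CCAAT, the CCAAT box, on either strand, so that TTCAAA and ATTGG are their reverse complements. Kif18a, the mitotic motor with the smallest rise, and the transport motors Kif1c and Kif3b are shown for contrast.
Kif11, chr19:37376282-37376411, strand +: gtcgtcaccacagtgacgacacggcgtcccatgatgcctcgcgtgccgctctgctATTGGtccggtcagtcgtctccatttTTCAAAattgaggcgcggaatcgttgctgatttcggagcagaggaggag
Kif15, chr9:122950981-122951110, strand +: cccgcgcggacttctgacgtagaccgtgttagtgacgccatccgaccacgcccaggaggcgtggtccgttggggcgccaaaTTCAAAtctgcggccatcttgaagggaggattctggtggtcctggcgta
Kif22, chr7:127042391-127042520, strand -: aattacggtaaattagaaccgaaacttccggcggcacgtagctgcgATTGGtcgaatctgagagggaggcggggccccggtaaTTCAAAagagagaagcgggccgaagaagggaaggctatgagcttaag
Kif23, chr9:61946770-61946899, strand -: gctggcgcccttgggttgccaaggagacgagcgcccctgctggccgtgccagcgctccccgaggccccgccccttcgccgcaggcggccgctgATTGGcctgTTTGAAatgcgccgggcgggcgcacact
Kif18b, chr11:102925095-102925224, strand -: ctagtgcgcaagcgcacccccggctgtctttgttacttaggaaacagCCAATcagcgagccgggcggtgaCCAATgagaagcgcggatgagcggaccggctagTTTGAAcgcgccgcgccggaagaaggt
Kifc1, chr17:33890604-33890733, strand -: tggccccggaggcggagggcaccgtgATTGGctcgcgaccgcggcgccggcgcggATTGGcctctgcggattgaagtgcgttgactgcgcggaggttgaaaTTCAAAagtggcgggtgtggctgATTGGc
Kif18a, chr2:109280638-109280767, strand +: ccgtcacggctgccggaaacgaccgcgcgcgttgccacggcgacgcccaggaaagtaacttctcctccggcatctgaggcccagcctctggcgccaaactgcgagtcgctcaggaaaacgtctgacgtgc
Kif1c, chr11:70700448-70700577, strand +: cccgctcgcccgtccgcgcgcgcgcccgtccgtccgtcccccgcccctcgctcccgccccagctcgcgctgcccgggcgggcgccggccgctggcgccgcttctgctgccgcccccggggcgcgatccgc
Kif3b, chr2:153291316-153291445, strand +: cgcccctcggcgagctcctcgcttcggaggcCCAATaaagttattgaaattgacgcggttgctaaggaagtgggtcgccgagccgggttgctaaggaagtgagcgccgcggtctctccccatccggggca

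Over the longer windows of the table, 250 bases before to 50 after the start, 33 of 42 members had an entry. The 13 mitotic members with an entry are not the 13 tested for expression: they include Kif2b, at 0 in all libraries, and lack Kif20a. CHR letters were found in 11 of 13 mitotic members, 84.6%, against 20.2% of 27025 genes in the table. Transport members held them in 1 of 10 cases (Kif1a), and the mitotic members without them were Kif18a and Kif2b. In Kif11, Kif15, Kif22, Kif23, Kif18b, Kif20b, Kif4 and Kifc1 a CHR match began within 20 bases of the start. Kif14, with the largest rise, had its match at base -228 from the start and Kif2c at -103. Letters and direction of change did not always go together. Kif26b, which fell with PDGF-BB (log2 -1.45), held CHR letters at -9 and CCAAT letters at -73. Kif24, which rose (log2 2.60), held no CHR letters. CCAAT letters were found in 9 of 13 mitotic members (69.2%) and 3 of 10 transport members, against 41.1% of all genes. The E2F-like letters GCGGGAA or GCGCGAA, on either strand, were in 0 of 13 mitotic members and in 6.86% of all genes. A match is a description of the letters only, and the searched motifs can overlap.

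Transport motors shifted in both directions with PDGF-BB. Kif5b (ENSMUSG00000006740.15) read 689, 609, 616 and 889 CPM in controls and 694, 768, 746 and 934 with PDGF-BB, a log2 difference of 0.16 ± 0.15 (adjusted p = 0.40) with overlapping groups. With the batch as a block it passed the threshold (log2 0.17, adjusted p = 0.0076). Kif13a, which carries recycling endosomes, rose from 75.2, 81.4, 77.6 and 81.5 CPM to 98.5, 87.3, 90.4 and 96.0, a log2 fold change of 0.24 ± 0.06 (adjusted p = 0.0036) without overlap.

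The kinesin-II subunits diverged under PDGF-BB. Kif3a fell from 54.0, 61.3, 60.4 and 57.8 CPM to 33.0, 40.6, 40.0 and 33.4, a log2 fold change of -0.67 ± 0.09 (adjusted p = 6.7e-06). Kif3c, an alternative partner of Kif3a, fell from 49.3, 52.4, 53.9 and 54.2 CPM to 32.0, 37.9, 37.6 and 31.7 (log2 -0.59 ± 0.07, adjusted p = 5.4e-07). Both sets of treated libraries lay below all controls. Kif3b stood at 88.9 to 94.3 CPM in controls and 93.9 to 107 with PDGF-BB, and missed the threshold (log2 0.15 ± 0.08, adjusted p = 0.13).

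Kifc2, a minus-end directed motor, fell from 7.98, 10.4, 9.97 and 5.69 CPM to 3.53, 3.54, 3.90 and 1.17, a log2 fold change of -1.48 ± 0.44 (adjusted p = 0.011). Kifc3, known from transport to cell junctions, fell from 41.6, 37.6, 40.8 and 43.5 CPM to 29.9, 30.7, 27.4 and 35.3 (log2 -0.41 ± 0.11, adjusted p = 0.0042). Groups did not overlap for either gene, and the P19 treated library was the lowest for Kifc2 and the highest for Kifc3. Kif13b, a relative of Kif13a, fell from 59.4, 60.5, 59.0 and 49.7 CPM to 49.7, 49.1, 46.7 and 48.0 (log2 -0.24 ± 0.08, adjusted p = 0.017). Here the lowest control, from P19, came within a fraction of a CPM of the highest treated library.

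Among the motors of cilia and centrioles, Kif24, which restrains cilium growth at the mother centriole, rose from 0.756, 0.704, 0.698 and 1.46 CPM to 6.23, 5.65, 4.32 and 6.31 (log2 fold change 2.60 ± 0.36, adjusted p = 7.1e-06). Its change was of the size seen in mitotic motors. Kif9, a motor of motile cilia, fell from 7.14, 6.39, 6.33 and 6.37 CPM to 3.65, 3.95, 2.42 and 3.51 (log2 -0.95 ± 0.19, adjusted p = 0.00039). Kif26b, an atypical kinesin of Wnt5a-Ror signalling, fell from 12.9, 13.0, 11.7 and 7.65 CPM to 4.99, 5.91, 3.64 and 1.93. Its log2 fold change was -1.45 ± 0.31 (adjusted p = 0.00079). Treated and control libraries of these 3 genes did not overlap. The remaining 5 cilium, centriole or length motors tested did not pass without the block, with log2 differences between -0.29 and 0.14.

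Partner genes were counted beside the motors. All 12 mitotic partners rose with PDGF-BB, with a median log2 fold change of 3.45, among them the kinetochore kinesin Cenpe (3.21) and the kinases Aurkb (3.92) and Plk1 (3.71). Of 11 transport partners, the mitochondrial adaptors Trak1 (0.32) and Trak2 (0.61) rose. Klc4 (-0.72), a kinesin light chain, the scaffolds Mapk8ip1 (-0.42) and Mapk8ip2 (-1.64), and Kif1bp (-0.14) fell. All 4 proliferation markers (Mki67, Top2a, Ccnb1 and Cdk1) rose too, from a summed 92.9 to 203 CPM to 1425 to 1490. Of 8 smooth muscle markers tested 2 fell (Acta2 by 0.94 and Cald1 by 0.37 on the log2 scale) and Smtn rose by log2 1.03. Of 4 fibroblast markers tested Col14a1 and Pdgfra fell (log2 -1.26 and -2.27) and Pi16 rose (0.57, a call lost with the block at an adjusted p of 0.055). The fibroblast sum was 122 to 268 CPM against 275 to 508. Of 2 endothelial markers tested Pecam1 fell (-1.65), and the endothelial sum was 0.356 to 1.05 CPM against 1.25 to 2.65 without overlap. The neuron marker Tubb3 rose (0.58), and its list had 1 of 4 called. The part of these shifts in the kinesin values was not tested.

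**Figure D2:**
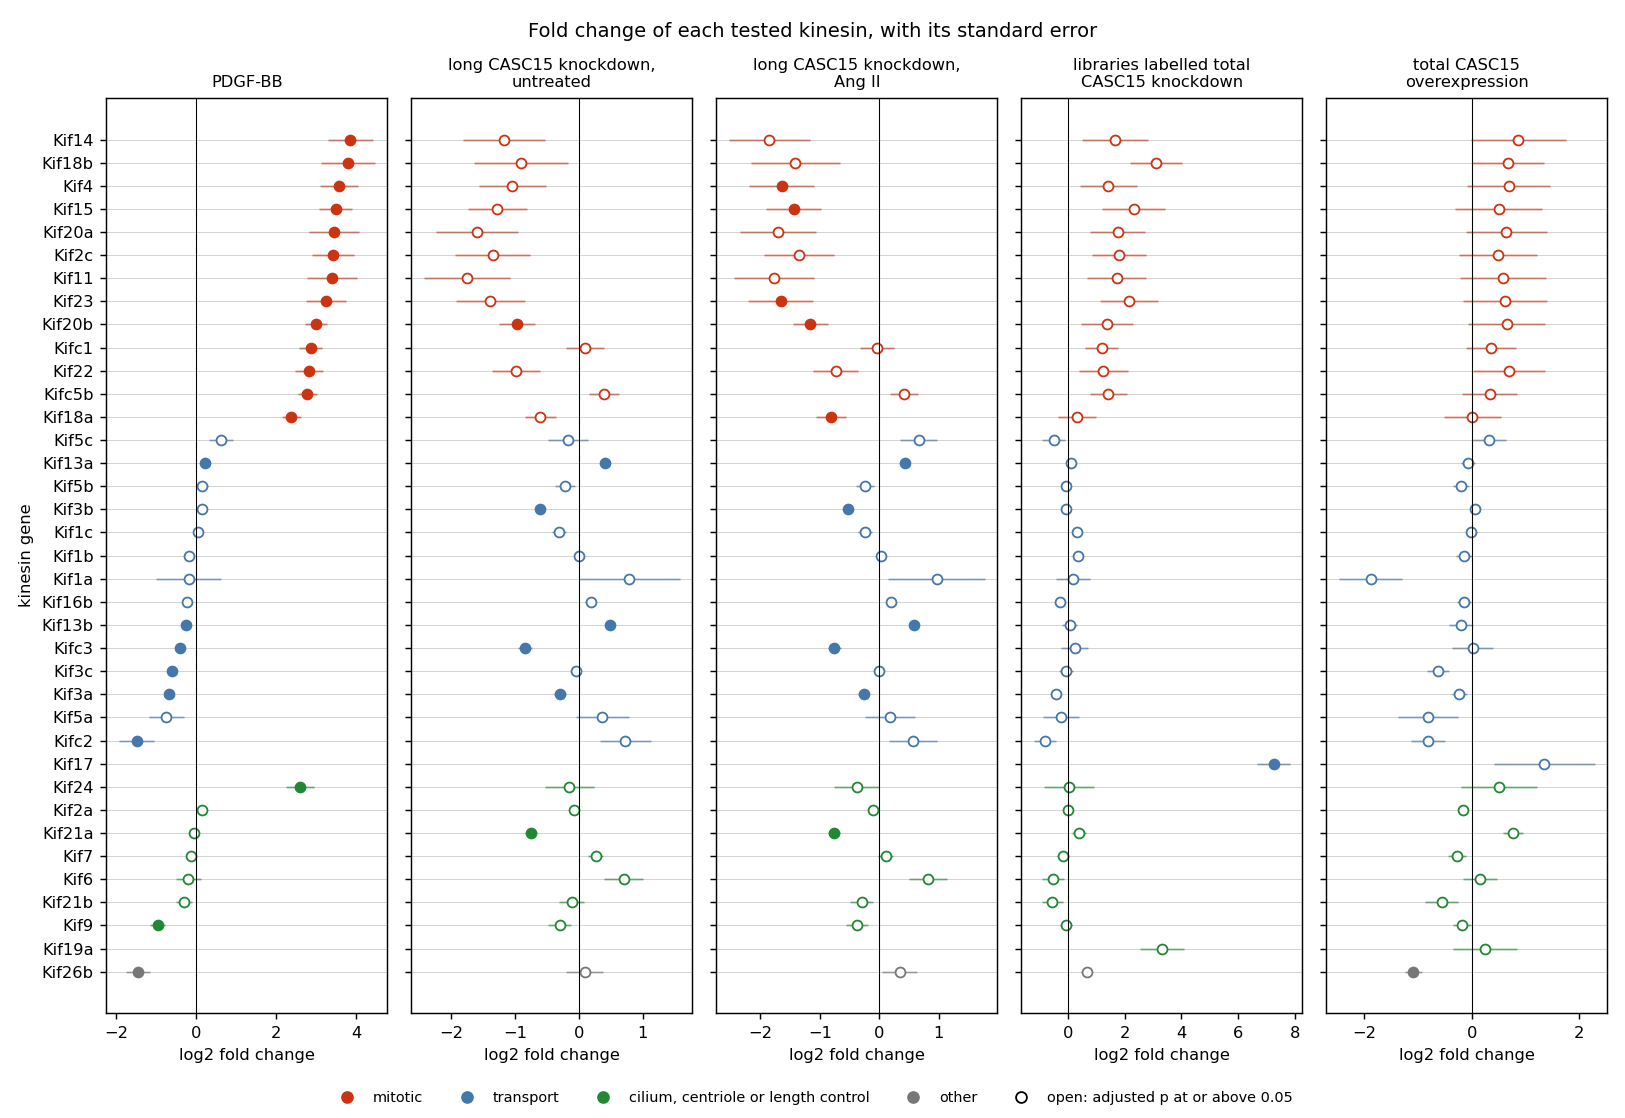
Log2 fold change with its SE for each kinesin tested in 5 comparisons, grouped by role. Filled points pass an adjusted p of 0.05 in edgeR's quasi-likelihood test. With PDGF-BB all 13 mitotic motors are filled and lie between 2.38 and 3.86, while transport motors spread on both sides of 0.

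With long CASC15 knockdown, 3 of 14 transport motors tested were called lower (Kif3a, Kif3b and Kifc3), 2 higher (Kif13a and Kif13b) and 9 not called. Of 7 cilium, centriole or length motors, 1 was called lower (Kif21a). Of 13 mitotic motors, 1 was called lower (Kif20b), while most of the others read lower with a wide spread. Against untreated control GapmeR cells of run 3, 7 of 35 members passed the threshold, 2 higher and 5 lower, where 25.0% of all genes tested passed (12.3% higher and 12.8% lower). With the batch as a block 20 members passed, where 40.6% of all genes did, and without P19 23 passed, where 40.0% did. The untreated controls are the same libraries as in the PDGF-BB comparison, so the comparisons are not independent.

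Kif20b, a motor of late cytokinesis, was the mitotic member called. It read 14.0, 13.9, 13.6 and 25.3 CPM in controls and 6.07, 7.07, 8.26 and 13.0 with knockdown, a log2 fold change of -0.97 ± 0.29 (adjusted p = 0.019). Within each batch the knockdown library was lower, and the groups did not overlap. The call was lost when the P19 control (log2 -0.70, adjusted p = 0.089), the P16 knockdown library (-0.84, adjusted p = 0.070) or the P17 knockdown library (-0.89, adjusted p = 0.061) was left out, and without the filter on low counts (-0.98, adjusted p = 0.057).

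Kif11 read 13.0, 10.9, 12.7 and 29.7 CPM in controls and 1.82, 2.00, 2.56 and 13.5 with knockdown. Each knockdown library was below the control of its own batch, but the P19 knockdown library exceeded the P16, P17 and P18 controls. The log2 difference was -1.76 ± 0.67 (adjusted p = 0.068) without a block, -1.85 with it (adjusted p = 0.0057) and -2.54 without P19 (adjusted p = 3.6e-13). Across the 13 mitotic motors tested, 11 had log2 differences below 0, and the median was -1.05 beside 0.02 over all genes. These 11 were lower in all 4 batches, a pattern shown by 24.4% of all genes. The block called 9 of them and the fit without P19 called 11, with a median of -1.77 there. The exceptions were Kifc1 (log2 0.09), the minus-end motor that focuses spindle poles, and its near-identical relative Kifc5b (0.40). Both were higher than the control of their batch in all 4 batches. Both share reads with each other or with other copies in all 30 libraries, so their values are uncertain, and that of Kifc1 turned negative without the P16 control, the P17 control or the P19 knockdown library (-0.0029, -0.023 and -0.17).

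Within batches, the median log2 ratio of mitotic motors between knockdown and control was -1.70 in P16, -1.37 in P17, -1.80 in P18 and -0.66 in P19. The same median for transport motors lay between -0.07 and -0.01. The number of members called rose to 18 when the P19 knockdown library alone was left out, and the mitotic median was then -2.09.

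**Figure D3:**
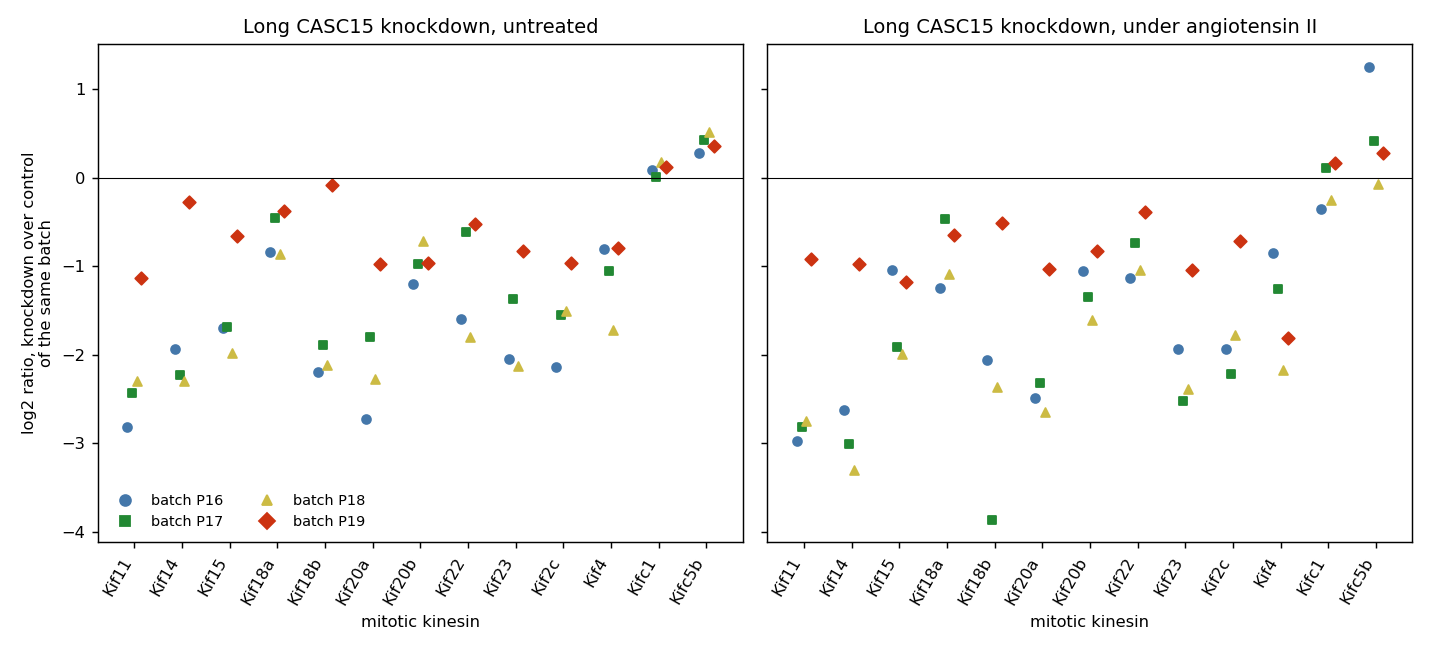
Log2 ratio of long CASC15 knockdown to control GapmeR within each batch for the 13 mitotic kinesins tested, untreated and with angiotensin II. Most ratios lie below 0 in every batch, the median is closest to 0 in P19 (-0.66 untreated and -0.83 with angiotensin II), and Kifc1 and Kifc5b stand near or above 0.

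Groups did not overlap for 9 of 35 members, against 24.5% of all genes. They were 5 of 14 transport motors, Kif20b, and Kif21a, Kif6 and Kif9 of the cilium, centriole or length motors. Kif3b read 91.1, 94.3, 88.9 and 92.6 CPM in controls and 58.4, 56.7, 54.6 and 71.3 with long knockdown. It fell in every batch, by a log2 fold change of -0.61 ± 0.08 (adjusted p = 9.1e-06). Its partner Kif3a fell from 54.0, 61.3, 60.4 and 57.8 CPM to 51.3, 44.3, 51.8 and 42.8, a log2 fold change of -0.30 ± 0.09 (adjusted p = 0.020). Neither subunit overlapped between groups, and Kif3a lost its call without the P17 knockdown library (log2 -0.26, adjusted p = 0.069). Kifap3, the accessory subunit of kinesin-II, was lower as well (log2 -0.22, adjusted p = 0.031). Kif3c, the alternative subunit, did not pass (log2 -0.05 ± 0.07, adjusted p = 0.64).

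Kifc3 fell from 41.6, 37.6, 40.8 and 43.5 CPM to 19.6, 22.4, 21.5 and 27.7, a log2 fold change of -0.85 ± 0.11 (adjusted p = 9.9e-06). Kif21a fell from 82.8, 82.5, 77.0 and 69.5 CPM to 43.9, 44.0, 42.4 and 55.3 (log2 -0.75 ± 0.10, adjusted p = 9.3e-06). For both genes all 4 knockdown libraries lay below all controls, with P19 the highest of them. In the other direction, Kif13b rose from 59.4, 60.5, 59.0 and 49.7 CPM to 75.1, 84.2, 85.7 and 74.9, a log2 fold change of 0.49 ± 0.08 (adjusted p = 1.0e-04). Kif13a rose from 75.2, 81.4, 77.6 and 81.5 CPM to 99.6, 108, 103 and 107 (log2 0.40 ± 0.06, adjusted p = 5.9e-05). These Kif13 relatives were higher in all 4 batches with no overlap.

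Kif5b read 689, 609, 616 and 889 CPM in controls and 559, 528, 550 and 775 with knockdown. It was lower in every batch although the groups overlapped, and did not pass (log2 -0.22 ± 0.15, adjusted p = 0.31) except with the block (adjusted p = 0.0016) or without P19 (adjusted p = 0.0029). Kif1c, whose P19 knockdown library stood at 601 CPM and the others at 421 to 424, missed the threshold as well, with a log2 difference of -0.31 ± 0.11 (adjusted p = 0.052, and 0.00048 with the block). The transport median was -0.02.

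**Figure D4:**
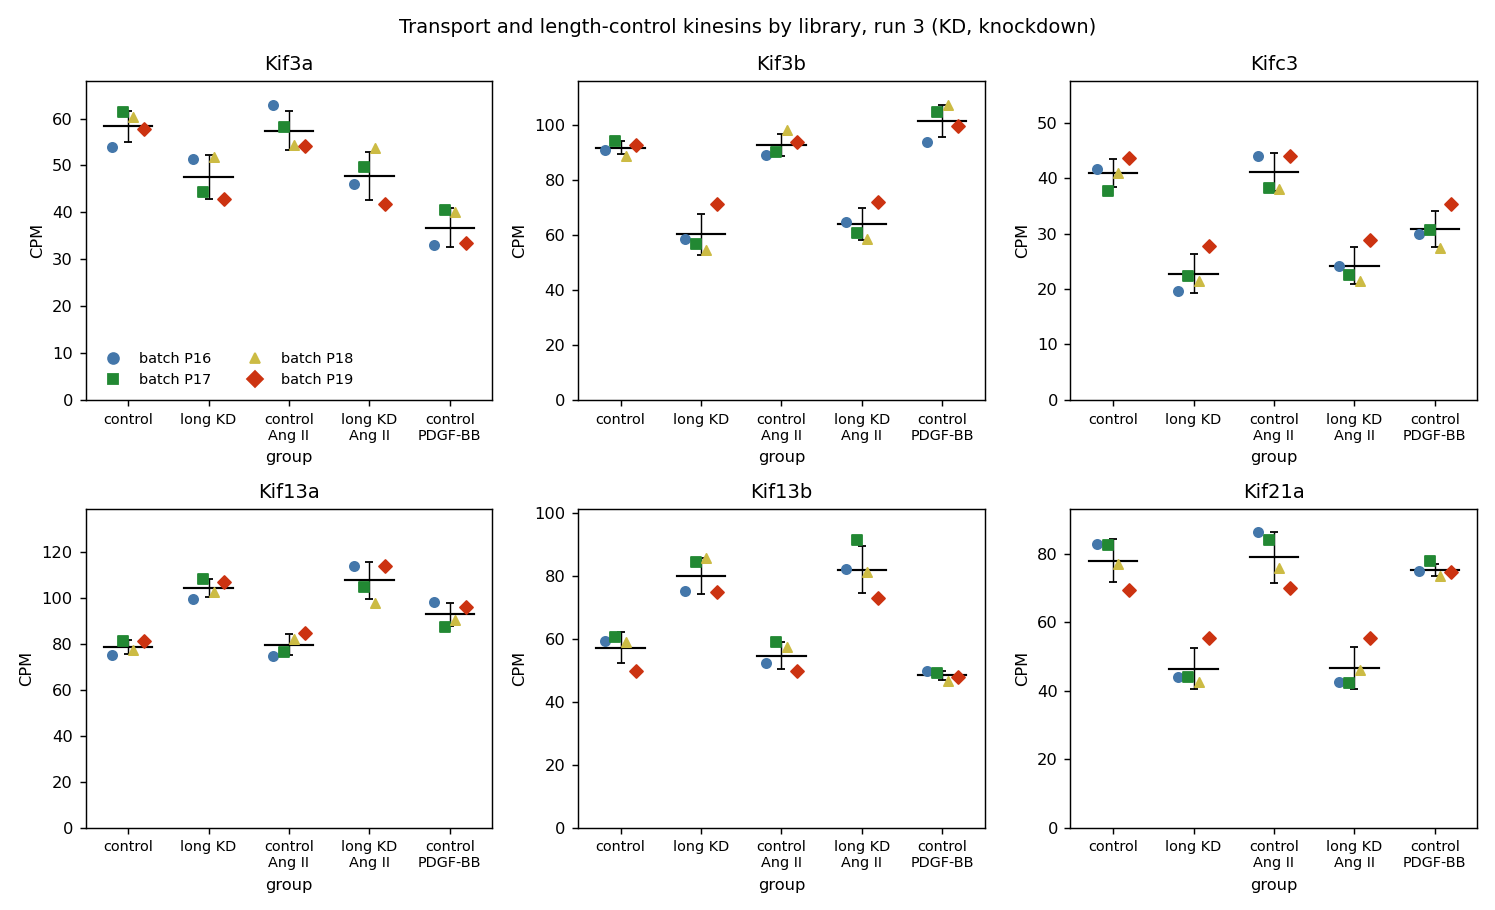
CPM of Kif3a, Kif3b, Kifc3, Kif13a, Kif13b and Kif21a in each library of run 3 by group, with the mean and SD (n = 4). Kif3b, Kifc3 and Kif21a sit lower in both knockdown groups than in their controls, and Kif13a and Kif13b sit higher.

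With angiotensin II in both arms, 11 members passed in the comparison of long CASC15 knockdown with control, 2 higher and 9 lower, where 26.7% of all genes tested passed (13.4% higher and 13.3% lower). All 7 members called in untreated cells were called in the same direction here, which is 100% of that list and 63.6% of the list under angiotensin II. Over all genes 3028 were called in both in the same direction, 80.0% and 75.1% of the lists of 3783 and 4033 genes. These 2 comparisons use different libraries from the same batches. Mitotic calls numbered 5 of 13, all lower, with 11 called under the block and 11 without P19. The mitotic median was -1.41, and 11 of 13 were lower in all 4 batches, as were 25.4% of all genes. The block called 24 members, where 41.3% of all genes passed, and the fit without P19 called 23, where 39.9% did.

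Kif23, the centralspindlin motor, read 7.91, 7.84, 10.8 and 16.5 CPM in angiotensin II controls and 2.05, 1.35, 2.05 and 8.02 with knockdown (log2 fold change -1.66 ± 0.55, adjusted p = 0.035). Kif4 read 1.77, 2.35, 3.68 and 8.08 CPM in controls and 0.976, 0.971, 0.799 and 2.29 with knockdown (log2 -1.64 ± 0.55, adjusted p = 0.035). For both, the P19 knockdown library lay above the lowest controls while every batch was lower. Kif15 fell from 3.73, 5.15, 5.61 and 9.93 CPM to 1.80, 1.35, 1.40 and 4.38 (log2 -1.44 ± 0.46, adjusted p = 0.029). Kif20b fell from 12.9, 16.6, 19.1 and 23.9 CPM to 6.16, 6.53, 6.24 and 13.5 (log2 -1.16 ± 0.29, adjusted p = 0.0067). Kif18a fell from 5.63, 5.00, 5.96 and 8.82 CPM to 2.36, 3.62, 2.80 and 5.63 (log2 -0.81 ± 0.25, adjusted p = 0.020). In these 3 genes too, only the P19 knockdown library overlapped the controls.

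Kif11 read 14.7, 12.6, 17.2 and 27.7 CPM in angiotensin II controls and 1.85, 1.78, 2.55 and 14.7 with knockdown. Its log2 difference of -1.77 ± 0.67 (adjusted p = 0.062) passed with the block (-1.95, adjusted p = 0.0039). In the fit without a block, several mitotic calls were lost when a single library was left out and the rest of its batch stayed. Without all P19 libraries, 11 of 13 mitotic motors were called, and with the block 11 as well. Without the P19 control, Kif15 (log2 -1.11, adjusted p = 0.12), Kif18a (-0.61, adjusted p = 0.10), Kif23 (-1.38, adjusted p = 0.12) and Kif4 (-1.04, adjusted p = 0.19) no longer passed. Without the P16 knockdown library 6 members passed in all, 7 without that of P17, 7 without that of P18 and 19 without that of P19. Kif20b was called each time a library was left out. Without the filter on low counts Kif15 (adjusted p = 0.088), Kif23 (0.094), Kif4 (0.11) and Kif3a (0.062) lost their calls, and with only these groups fitted Kif18a (0.056) and Kif23 (0.063) did.

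The transport and length motors had similar values under angiotensin II. Kif3b fell from 89.0, 90.1, 98.0 and 93.7 CPM to 64.7, 60.5, 58.6 and 72.0 (log2 fold change -0.53 ± 0.08, adjusted p = 3.7e-05). Kifc3 fell from 44.0, 38.1, 38.0 and 44.0 CPM to 24.1, 22.5, 21.4 and 28.9 (log2 -0.76 ± 0.11, adjusted p = 3.2e-05). Kif21a fell from 86.2, 83.9, 75.7 and 69.9 CPM to 42.5, 42.3, 45.9 and 55.5 (log2 -0.76 ± 0.10, adjusted p = 7.4e-06). In each of these genes, every knockdown library was below every control. Groups did not overlap for 6 of 35 members in this comparison, against 24.8% of all genes. Kif3a fell from 63.0, 58.1, 54.3 and 54.2 CPM to 46.0, 49.8, 53.7 and 41.8 (log2 -0.26 ± 0.09, adjusted p = 0.035). That call was lost without the P16 control (adjusted p = 0.10), the P17 control (0.0504), or the P16 (0.092), P17 (0.052) or P19 (0.088) knockdown library.

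Kif13a rose from 75.0, 76.7, 82.2 and 84.8 CPM to 114, 105, 97.8 and 114 (log2 0.44 ± 0.06, adjusted p = 2.5e-05). Kif13b rose from 52.3, 59.0, 57.3 and 49.8 CPM to 82.2, 91.3, 81.3 and 72.9 (log2 0.58 ± 0.08, adjusted p = 1.4e-05). Groups of neither gene overlapped. Kif5b read 631, 666, 653 and 866 CPM in controls and 513, 536, 597 and 726 with knockdown, lower in each batch without passing (log2 -0.25 ± 0.15, adjusted p = 0.24; with the block, 0.00050).

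Among partner genes, the midbody kinase Cit fell in both knockdown comparisons (log2 -1.65 untreated and -1.80 with angiotensin II). Plk1 (-1.43) and the chromosomal passenger Cdca8 (-0.97) passed the threshold under angiotensin II, and the interaction called no gene. Cenpe stood at log2 -1.41 (adjusted p = 0.072) and -1.28 (adjusted p = 0.098). Of 12 mitotic partners, 1 and 3 were thus called, 10 and 11 with the block, and 12 and 12 without P19. Of 11 transport partners, Trak1 rose (0.51 and 0.50) and Trak2 fell (-0.46 and -0.56) in both comparisons, Kifap3 fell in untreated cells, and Klc4 rose with angiotensin II (0.26). Of 4 proliferation markers, Top2a was the 1 called in both, lower by 1.33 and 1.51 on the log2 scale. The list medians were -1.40 and -1.62. All 4 were called lower in both comparisons with the block, and also without P19. The summed proliferation markers read 27.9 to 128 CPM with untreated knockdown against 92.9 to 203. Of 4 fibroblast markers tested in untreated cells Col14a1 and Pi16 fell (log2 -1.19 and -1.83) and Pdgfra rose (1.66), with a median of 0.22 and a sum of 176 to 245 CPM against 275 to 508. The endothelial marker Vwf rose (2.10), and the endothelial sum was 1.91 to 3.78 CPM against 1.25 to 2.65. Among neuron and Schwann cell markers Syt1 rose (log2 1.12) and Tubb3 fell (-0.72), and 2 of 4 tested were called higher and 1 lower. Snap25 was at 0 in all 30 libraries. Of 8 smooth muscle markers tested 2 were higher and 1 lower untreated, and 2 higher and 2 lower with angiotensin II. Fibroblast calls with angiotensin II were 1 higher and 2 lower, endothelial 1 higher of 2, and neuron and Schwann 1 higher and 1 lower. The part of these markers in the kinesin values was not tested.

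Angiotensin II alone left no kinesin past the threshold. Against untreated cells, edgeR's quasi-likelihood test called 0 of 35 members with the control GapmeR and 0 of 35 with long knockdown, where 0% of all genes passed in either. At an unadjusted p of 0.05, 0 members passed in edgeR and 0 of the 32 with a p in DESeq2, while 156 and 174 genes did in edgeR. With the block 262 and 324 genes did. All these counts are below a share of 0.05 of the 15103 genes tested, so the tests were conservative here. A count of 0 members therefore does not show that kinesins were unchanged. Without P19, 4 mitotic members reached that unadjusted p in control cells (5 with the block as well) and 1 transport member did in knockdown cells, among 443 and 456 genes, and 0 passed after adjustment. Mitotic medians were 0.15 and 0.04, and transport medians 0.01 and 0.04. The mitotic median in control cells turned to -0.15 without the P19 angiotensin II library. The log2 differences of members ranged from -0.25 to 0.45 in control cells and from -0.53 to 0.60 in knockdown cells. The interaction of knockdown and angiotensin II likewise gave 0 calls among members and 0% among all genes, with 0 members at an unadjusted p of 0.05 by edgeR or DESeq2, 1 by edgeR with the block and 3 without P19. These comparisons share control or knockdown libraries with those above.

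In run 2, the libraries labelled total CASC15 knockdown differed from control GapmeR cells in 1 called kinesin. Of 37 members tested, Kif17 passed, where 2.07% of 15350 genes tested did. Kif17, a motor of cilia and dendrites, had 2 and 2 counts in the controls of P17 and P18 and 235 and 418 in the labelled libraries. Those values correspond to 0.0891 and 0.0988 CPM and to 11.8 and 18.7 CPM. Its summed counts, scaled to depth, differed 165-fold, with a 95% exact interval of 64.1 to 607 that covers counting error only. In the other 26 libraries Kif17 held at most 5 counts. It thus passed the filter on low counts through the labelled libraries alone, where it is high, so its call is a description and supports nothing. Without the P17 control 0 members were called.

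Kif19a, which sets the length of motile cilia, had 1 and 2 counts in controls and 14 and 18 in the labelled libraries. Its ratio was 10.8 (95% exact interval 3.37 to 55.0, which covers counting error only), a description that supports nothing. Kif19a entered the test in the same way as Kif17, and no p is given. It held 132 counts in all, with a count in 26 of 30 libraries, so it was also read outside this comparison. Kif28 was read in the labelled libraries alone, with 3 and 10 counts, and was at 0 in the other 28. Macrophage markers moved with these genes: 2 of 5 (Cd68 and Csf1r) rose, and their sum was 17.3 to 21.0 CPM against 0.579 to 0.790, mostly Cd68. The summed endothelial markers read 6.02 to 9.99 CPM against 2.81 to 3.90 (0 of 2 tested called, and 2 higher with the block). The summed fibroblast markers read 133 to 149 CPM against 181 to 237 (0 of 5 called, and 2 lower with the block). Of 8 smooth muscle markers 1 was called higher, and 2 with the block. Ptprc was at 0 in these libraries and Adgre1 had at most 1 count, and the part of other cells in these values was not tested.

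Mitotic motors were higher in the libraries labelled total CASC15 knockdown in both batches without passing the test. All 13 had log2 differences above 0, with a median of 1.66, and 13 were higher in both batches, as were 37.2% of all genes. The test called 0 of them, DESeq2 called Kif18b (adjusted p = 0.0039), the block called 12, where 14.4% of all genes passed, and the fit without P19, a batch these 2 groups do not hold, called 10, where 6.86% did. Without the filter on low counts, or with only these groups fitted, 13 members of any role passed. Kif11 read 3.61 and 5.58 CPM in controls and 10.4 and 19.8 in the labelled libraries (log2 1.72 ± 1.04, adjusted p = 0.58, and 6.5e-05 with the block). Kif5b read 467 and 482 CPM against 437 and 457 (log2 -0.09 ± 0.18, adjusted p = 0.92). Neither pair of groups overlapped, as held for 26 of 37 members and 49.4% of all genes. Cenpe stood at log2 1.91 (adjusted p = 0.46). Of the mitotic partners 0 of 12 were called without the block and 12 with it, and of the transport partners 0 of 11 without it.

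CASC15 overexpression lowered 1 kinesin in the test, Kif26b, where 1.65% of all genes passed. Kif26b read 12.0, 14.1 and 11.7 CPM with the control plasmid in P17 to P19 and 6.39, 5.98 and 5.40 with overexpression. The groups did not overlap, and the log2 fold change was -1.09 ± 0.17 (adjusted p = 0.014). The call was lost without the P18 control (log2 -1.004, adjusted p = 0.065), without the P18 overexpression library (-1.09, adjusted p = 0.071) and when only these 2 groups were fitted. In the libraries labelled total CASC15 knockdown it stood at log2 0.66 (adjusted p = 0.15, and 0.014 with the block).

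All 13 mitotic motors had log2 differences above 0 with overexpression, with a median of 0.62, and 12 were higher in all 3 batches, as were 26.8% of all genes. The test called 0 of 13, the block called 11, where 17.7% of all genes passed, and the fit without P19 called 1, where 5.57% did. Kif11 read 6.85, 11.2 and 47.3 CPM with the control plasmid and 12.1, 18.6 and 66.8 with overexpression. It was higher within each batch, but batches differed more than the groups did, and the log2 difference was 0.58 ± 0.80 (adjusted p = 0.78, and 0.0019 with the block). Leaving out the P19 overexpression library alone, while its control stayed, turned all 13 negative, from -0.12 for Kif18b to -0.54 for Kif18a, and the median to -0.30. Without the P19 control alone the median was 1.78. The pooled direction thus rests on which P19 libraries are kept, while within-batch medians were 0.84 in P17, 0.80 in P18 and 0.46 in P19.

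Other members came close with overexpression. Kif21a read 28.9, 37.7 and 32.8 CPM with the control plasmid and 58.5, 66.3 and 44.3 with overexpression. It was higher in all 3 batches without overlap (log2 0.77 ± 0.19, adjusted p = 0.097), and passed with the block (adjusted p = 0.0014) and in DESeq2 (adjusted p = 0.012). Kif3c stood at log2 -0.63 (adjusted p = 0.19, and 0.0020 with the block), and Kif1a, a neuronal vesicle motor present at under 2 CPM here, at -1.88 (adjusted p = 0.17, and 0.012 with the block). Kif5b read 496, 587 and 698 CPM against 436, 576 and 535 (log2 -0.20 ± 0.15, adjusted p = 0.57), lower in each batch with overlapping groups. Of 12 mitotic partners 0 were called and 12 with the block, and Cenpe stood at log2 0.85 (adjusted p = 0.63). Of 11 transport partners 0 were called and 3 were lower with the block. Of 4 neuron and Schwann cell markers tested 0 were called, with a median of -0.90, and 3 were lower with the block. Their sum was 47.4 to 52.4 CPM with overexpression against 39.2 to 71.9, and their part in the Kif1a value was not tested. The smooth muscle, endothelial, macrophage and fibroblast lists had 0 calls each, and with the block 1 lower, 0, 1 higher, and 1 higher and 1 lower.

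Side by side, mitotic medians were 3.41 with PDGF-BB, -1.05 and -1.41 with long CASC15 knockdown, 1.66 in the libraries labelled total CASC15 knockdown and 0.62 with overexpression. Transport medians were -0.19, -0.02, 0.10, -0.06 and -0.15 in the same order. The members not tested for low counts were Kif2b and Kif12, at 0 in all libraries, Kif26a with 3 counts in 1 library, Kif27 with at most 6 counts in 21 libraries, and Kif28.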

How the data were processed

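Expected counts per gene were deposited by the authors as a table with 1 column per library, and the submitters' processing notes name STAR 2.7.11b, RSEM 1.3.1 and the builds GRCm39 and mm10 without saying which build gave the table. RSEM splits reads that fit several genes, so 2099 to 5309 values per library were not whole. Values were rounded to whole numbers. Identifiers were matched to symbols with a GENCODE mouse annotation (51486 of 78334, holding 98.7% of counts), and no gene coordinates are given beyond the RefSeq promoter windows on GRCm38.p6. Levels are CPM of the TMM-adjusted library size of the tested genes, and per-kilobase levels divide by exon length. Runs 2 and 3 were fitted apart with edgeR 4.0.16 (R 4.3.3): default low-count filter (minimum count 10, minimum total 15), TMM scaling, the quasi-likelihood test over all groups of a run, and Benjamini-Hochberg adjustment over 15103 genes in run 3 and 15350 in run 2. Calls were made at an adjusted p below 0.05. The spread between replicates (edgeR's common biological coefficient of variation) was 0.148 for run 3 and 0.232 for run 2, so smaller differences could be detected in run 3.

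The labels give libraries of different groups the same batch, and same-batch libraries deviated together (mean correlation of deviations 0.197 against -0.0606 in run 3, 0.23 against -0.121 in run 2). Batch was therefore fitted as a replicate block beside the main test, which has none. Other alternatives were DESeq2 1.42.0, no filter on low counts, a mean CPM of at least 1, fitting only the groups compared, and leaving out each library. Leaving out batch P19, alone or with the block, was added after the data were seen.

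The members, roles and gene lists were chosen with earlier results of these data known. Of the 42 members, 35 passed the filter in run 3 and 37 in run 2. Members that passed the filter may have done so through the group where they are high. Values in every library are given for Kif11 and Kif5b wherever a comparison had calls, and for up to 5 called members of each role with the largest rise and 5 with the largest fall. Cell type markers, proliferation markers and partners were counted from fixed lists. The scripts were tested on simulated data.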

Additional observations from a re-analysis of the deposited data

Results flagged for a closer look

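In groups of 4 libraries, the highest or lowest library was listed where its gap to the next exceeded Dixon's 95% limit as a share of the group's range. Of 115 groups of values examined over members and sums, 33 were listed. Chance gives about 1 in 20 where groups are independent, which these are not. The values come from the same libraries, the sums hold the same genes, and most genes were examined because they were called. The count therefore has no chance level to be set against. Batch P19 supplied 30 of the 33, and 30 of 33 were the highest library.

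In untreated long CASC15 knockdown cells the P19 library stood alone for the mitotic sum (115 CPM against 33.8 to 41.8 in the others) and for the transport sum (2025 CPM against 1574 to 1605). It was also the highest for Kif11 (13.5 CPM), Kif14 (4.14), Kif15 (5.04), Kif18b (4.67), Kif20a (25.3), Kif23 (9.13), Kif4 (3.56), Kif21a (55.3) and Kif5b (775). With knockdown and angiotensin II the P19 library stood alone for the mitotic sum (117 CPM against 35.8 to 39.5) and the transport sum (2002 against 1626 to 1629). The same held there for Kif11 (14.7 CPM), Kif14 (2.94), Kif15 (4.38), Kif18b (3.89), Kif20a (27.9), Kif20b (13.5), Kif23 (8.02) and Kif4 (2.29).

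In untreated controls P19 was the highest for the transport sum (2169 CPM), Kif11 (29.7), Kif18a (7.31), Kif20b (25.3) and Kif24 (1.46), and the lowest for Kif13b (49.7). With angiotensin II in control cells it was the highest for the transport sum (2144 CPM) and Kif5b (866). With PDGF-BB it was the lowest for Kifc2 (1.17 CPM). Outside P19, the P18 library was the lowest for Kif18a with PDGF-BB (27.7 CPM), the P16 library was the highest for Kif20a with PDGF-BB (345 CPM), and the P16 control was the highest for Kif9 (7.14 CPM). What sets P19 apart was not tested.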

How the results depend on the processing

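The count of kinesins called moved most with the batch. With the replicate block it was 28 in place of 22 for PDGF-BB, 20 in place of 7 for untreated long CASC15 knockdown, 24 in place of 11 under angiotensin II, 19 in place of 1 in the libraries labelled total CASC15 knockdown and 17 in place of 1 with overexpression. Without P19 the last 4 of these counts were 23, 23, 12 and 4, and with the block as well 23, 24, 19 and 14. The mitotic median went from -1.05 to -1.77 in untreated knockdown cells without P19, with or without the block, and from 0.62 to 0.88 with overexpression. Without the low-count filter the counts were 7 under angiotensin II, 13 in the labelled total knockdown libraries and 6 with overexpression, and the transport median in untreated knockdown cells was -0.0575 in place of -0.02. Fitting only the groups compared gave 13 and 0 in run 2, and DESeq2 gave 3 (Kif17, Kif18b and Kif1c) and 2. The smallest value, Kif18a with overexpression (log2 0.01), turned to -0.0041 without the filter, to -0.0018 with a minimum mean of 1 CPM and to -0.0026 with only those groups. The angiotensin II comparisons and the interaction kept 0 calls under every alternative run.

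Leaving out each library in turn, called kinesins numbered 22 to 23 with PDGF-BB, 5 to 18 and 6 to 19 with long knockdown, 0 to 1 in the labelled total knockdown libraries, 0 to 3 with overexpression and 0 to 0 for angiotensin II and the interaction. Mitotic medians ranged from 3.17 to 3.80 with PDGF-BB, -2.09 to -0.76 and -2.11 to -1.07 with long knockdown, 1.28 to 1.89 in the labelled libraries and -0.30 to 1.78 with overexpression. For angiotensin II they ranged from -0.15 to 0.49 in control cells, -0.70 to 0.69 in knockdown cells and -0.88 to 0.65 for the interaction. Transport medians ranged from -0.30 to -0.11 with PDGF-BB, -0.12 to 0.00553 and 0.0223 to 0.11 with long knockdown, -0.14 to 0.14 in the labelled libraries and -0.29 to -0.10 with overexpression. For angiotensin II they stayed within -0.03 to 0.03, 0.01 to 0.08 and 0.02 to 0.08.

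With 1 library left out, some single genes changed sign. Kifc1 ranged from -0.167 to 0.347 in untreated knockdown cells (also -0.0029 and -0.0232) and from -0.391 to 0.181 under angiotensin II (also 0.091, 0.073 and 0.012). Kif18a ranged from -0.019 to 0.578 in the labelled libraries and from -0.54 to 0.860 with overexpression (also -0.289 and -0.291). With overexpression, the lowest value (without the P19 overexpression library) and the highest (without the P19 control plasmid library) were -0.51 and 1.85 for Kif11, -0.20 and 2.42 for Kif14, -0.29 and 1.99 for Kif15, -0.12 and 1.78 for Kif18b, -0.31 and 1.99 for Kif20a, -0.25 and 1.78 for Kif20b, -0.37 and 1.61 for Kif22, -0.43 and 1.94 for Kif23, -0.48 and 1.75 for Kif2c, -0.23 and 2.13 for Kif4, -0.27 and 0.917 for Kifc1 and -0.30 and 1.05 for Kifc5b. Groups of 2 to 4 libraries and low counts (Kif17, Kif19a, Kif24) limit these values.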

Other observations

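Some kinesins outside the mitotic list also set batch P19 apart, each chosen here after its values were seen. Kif1a, a motor for synaptic vesicle precursors, read 6.03 CPM in the P19 untreated control of run 3 against 1.43 to 2.06 in the other batches. It read 14.6 CPM in the P19 untreated long CASC15 knockdown library against 0.979 to 2.66, and 13.1 against 2.43 to 3.29 with knockdown and angiotensin II. In run 2 the order was the other way round, with 0.680 CPM in the P19 control plasmid library against 1.27 and 1.71.

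Kifc3 read 53.2 CPM in the P19 control plasmid library against 22.1 and 25.4 in P17 and P18, and 52.5 with overexpression in P19 against 23.6 and 25.3. In run 3 controls the same batch stood at 43.5 CPM against 37.6 to 41.6. Kifc2 was lowest in P19 in every group that holds this batch. In untreated long knockdown cells it read 5.997 CPM in P19 against 15.3 to 18.8 in the others, and with the control plasmid 5.61 against 11.7 and 12.3.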
